A study of Mus musculus with 12 samples.

Results

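The comparison described here is that of pimobendan with control in the pressure-loaded left ventricle of the mouse. It set 3 libraries of TAC+pimobendan mice against 3 of TAC+control mice, with the spread between mice estimated from all 12 libraries of the series, and took all genes with at least 1 FPKM (fragments counted per kilobase of transcript and scaled to the size of the library) in 3 or more of the 12 libraries, which were 11415 of the 17052 genes in the table. Every mouse was of strain C57BL/6, was operated on at 8 weeks of age and was sampled at 12 weeks. No engineered allele is named for any group. In transverse aortic constriction (TAC) a clip narrowed the aortic arch, so that the left ventricle pumped against a raised pressure. Sham mice had the operation without the clip. TAC+pimobendan and Sham+pimobendan mice received oral pimobendan at 1 mg/kg/day for 4 weeks, and TAC+control and Sham+control mice served as controls without the drug, whose vehicle is not named. Each group had 3 mice, and each library came from 1 left ventricle, so that all its cell types are mixed. In the 6 sham libraries the same drug was compared with control.

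Pimobendan makes cardiac troponin C more sensitive to calcium and inhibits phosphodiesterase 3, an enzyme that breaks down cyclic AMP in heart muscle. Pressure overload enlarges cardiomyocytes and can bring back genes of the fetal heart, such as natriuretic peptides, skeletal alpha-actin and the slow myosin heavy chain. Interferons, a family of cytokines, signal through JAK kinases to a complex of STAT proteins with IRF9, which switches on antiviral genes. Many of those genes are also expressed at a low level in tissues without infection, the heart among them.

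The libraries carried the markers of a ventricle. Ventricular cardiomyocyte markers summed to between 55770 and 58071 FPKM in TAC+control and between 51566 and 56727 in TAC+pimobendan, while the atrial light chain Myl7 was at most 2.16 FPKM in these 6 libraries. Thymus markers summed to at most 0.34 FPKM, B cell markers to at most 2.64 and T and NK cell markers to at most 11.1. The number of counted fragments is not given with FPKM, so the depth of the libraries is unknown. Between 10809 and 10859 genes per library reached 1 FPKM in TAC+control and between 11161 and 11292 in TAC+pimobendan. FPKM over all genes summed to between 623408 and 643478 in TAC+control and between 593203 and 608040 in TAC+pimobendan. The groups did not overlap in either. The number of calls moved with the scaling of the libraries, as given below. Beyond that, the part of these differences in the calls was not tested. Genes just inside the filter, at 1 FPKM or more in exactly 3 libraries, numbered 127 and had a median mean level of 0.822 FPKM, and the 172 genes just outside it, with exactly 2 such libraries, had 0.720 FPKM. In all, 3 genes passed only through the TAC+pimobendan libraries, and 1 of them was called.

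With pimobendan, 360 genes rose and 13 fell in the loaded ventricle, 3.15% and 0.114% of the genes tested and 3.27% together (limma, adjusted p under 0.05; 3040 genes at an unadjusted p under 0.05). The largest rises were in Iigp1, an interferon-inducible GTPase, in the antiviral gene Ifit1, in the splicing factor Srsf5 and in Fbxo32, the muscle ubiquitin ligase atrogin-1. The largest falls were in Alas2, the first enzyme of red cell heme synthesis, in the phosphatase Alpl and in Sco2, a copper chaperone of cytochrome oxidase. The log2 difference (TAC+pimobendan minus TAC+control, on log2(FPKM + 1)) had a median of 0.63 over the risen genes, from 0.29 to 1.92, and of -0.40 over the fallen genes, from -1.22 to -0.28. Over all genes tested the median was 0.095, and 7531 of the 11415 were positive, a share against which the counts of positive members below are to be read. The calls lay close to the threshold, with adjusted p between 0.0309 and 0.0498. Among the risen genes 358 had no overlap between the 3 drug and the 3 control values, and all 13 fallen genes had none, where 23.3% of all genes lay apart in the higher direction and 6.64% in the lower.

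The number of calls and the size of the differences both moved with the processing. Removing from each library its trend with GC content left 0 calls; the risen genes then had a median difference of 0.36 and the fallen genes of -0.41. Median-ratio scaling left 1 call, Srsf5, and quantile normalization 0, while TPM in place of FPKM gave 1110. Blocking on the replicate number left 1 call, Srsf5, when all 4 groups shared the block. It gave 694 when only the TAC groups did (called the paired fit below), 366 of them shared with the 373. These were 667 higher and 27 lower of 11415 genes, the share against which counts of members in the paired fit are to be read. The labels do not state that these mice were paired, and this fit was chosen after seeing the data. Its p values below describe that alternative only and add no support to a call. No gene named below other than Srsf5 passed when all 4 groups shared the block. With the GC trend removed as well, both gave 0. A fit of the 6 TAC libraries alone gave 0 calls. Leaving out 1 library gave between 0 and 1190 calls: 1190 without TAC+pimobendan replicate 1 and 409 without TAC+control replicate 2, but 3 without TAC+control replicate 1 or without TAC+pimobendan replicate 3, and 0 without TAC+control replicate 3 or without TAC+pimobendan replicate 2. Each "rose" or "fell" below is a call of the fit with 373 calls. Counts of risen and fallen members are to be read against the 3.15% and 0.114% of all genes.

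**Figure D1:**
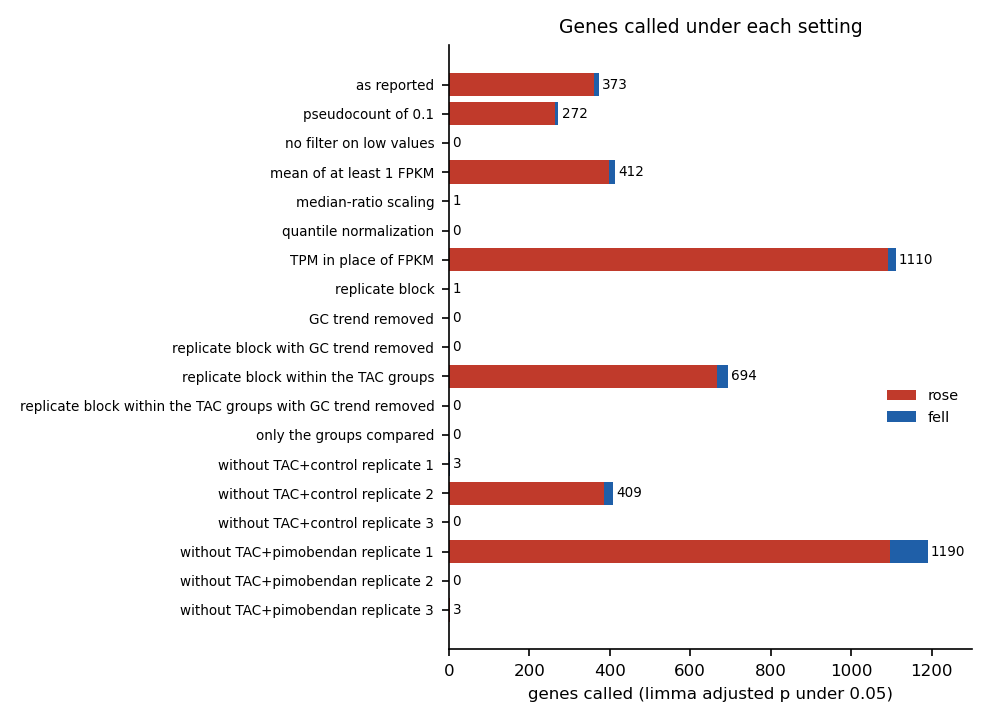
Genes called in TAC+pimobendan against TAC+control (x axis, number of genes; red, rose; blue, fell) under the reported setting and each alternative (y axis). The reported setting gives 373 calls, and the alternatives run from 0 to 1190.

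GC content moved with the difference. The risen genes had a median GC content of 43.4% and the fallen genes of 57.0%, against 50.5% over all genes, and 240 of the 358 risen genes with a known GC content were under 45% GC, against 2425 of 11334 of all genes. In the quintile of genes with the lowest GC content, 234 rose and 0 fell, and the median log2 difference was 0.31. In the quintile with the highest, 7 rose and 9 fell, and the median was -0.04. Median transcript length was 4798 bases for the risen genes, 1250 for the fallen and 3103 for all. Across genes, which are not independent replicates, Spearman's rank correlation between GC content and how far a library lay from the average library was -0.210, -0.522 and -0.541 in the TAC+pimobendan libraries and 0.129, 0.024 and 0.288 in TAC+control. The rank correlation of the same deviations with transcript length was 0.231, 0.181 and 0.275 in the TAC+pimobendan libraries and -0.102, -0.265 and -0.127 in TAC+control, with no overlap, and its part in the calls was not tested. By GC content, the drug difference after sham ran the other way, with medians of -0.091 in the lowest quintile and 0.065 in the highest. The part of GC content in the calls was not tested beyond removing the trend, so the difference with the trend removed (below, the GC-adjusted difference) is given beside most genes that follow. Of the 358 risen genes, 132 kept under 50% of their difference after it.

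**Figure D2:**
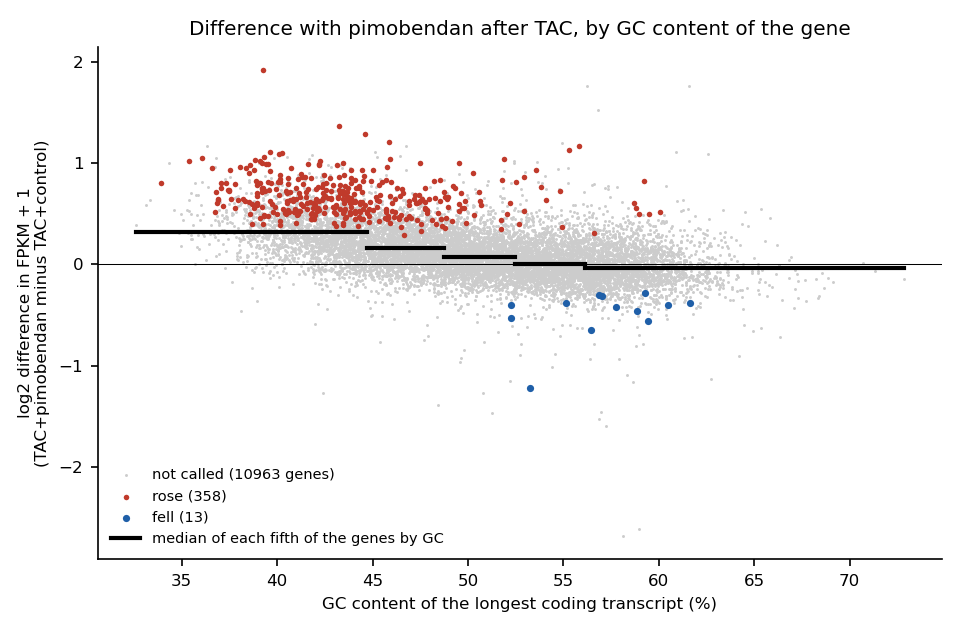
Log2 difference of each gene tested (y axis, TAC+pimobendan minus TAC+control) against the GC content of its longest coding transcript (x axis, percent). Risen genes (red) lie mostly at low GC content and fallen genes (blue) at high, and the black bars give the median of each quintile of genes by GC content, from 0.31 to -0.04.

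Interferon-stimulated antiviral genes had the highest share of risen members among the lists. Of 46 such genes tested (57 listed), 14 rose and 0 fell, or 30.4% against 3.15% of all genes. In total 42 were positive, and 29 had drug values all above the control values, where 23.3% of all genes did. The median log2 difference of the list was 0.52. That median was 0.41 after GC adjustment, 0.45 under median-ratio scaling and 0.34 under quantile normalization, where all genes stood at -0.02, 0.01 and -0.02. After sham the same 46 genes had a median drug difference of -0.02, and 21 were positive. Single members differed after sham: Lgals3bp stood at 0.38, Slfn2 at 0.21, Rtp4 at 0.31 and Slfn5 at -0.37, none of them called.

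The transcription factors and kinases that carry the interferon signal are described before the effectors, an order of the text and not of time. Of 30 sensing and signalling genes tested 3 rose and 0 fell (median 0.24, GC-adjusted 0.16). Irf7 (chr7:141263169-141266499), the factor that amplifies type I interferon production, measured 6.21, 6.95 and 7.06 FPKM without the drug and 12.7, 12.0 and 25.9 with it. The log2 difference of 1.12 ± 0.24 (SE, with a 95% confidence interval from 0.61 to 1.64, limma adjusted p = 0.0409) was the same, 1.12, after GC adjustment. Irf9 (chr14:55603985-55610030), the DNA-binding part of the STAT complex, had 7.01, 7.45 and 7.52 FPKM without the drug and 12.9, 13.8 and 23.2 with it (1.04 ± 0.23, limma adjusted p = 0.0432, GC-adjusted 0.98). In both genes the controls lay within a narrow band, and drug replicate 3 was the highest of the 6 mice. The kinase Jak2 rose from 3.02, 4.54 and 3.58 FPKM to 5.60, 7.44 and 7.81 (0.76 ± 0.16, GC-adjusted 0.50). After sham the drug differences of Irf7, Irf9 and Jak2 were 0.31, 0.56 and -0.32, none of them called. For Irf9 the difference between both drug effects was 0.47 ± 0.33 (limma adjusted p = 0.452). Stat2, a partner of Irf9, stood at 0.66 ± 0.19 and the RNA sensor Ifih1 at 0.88 ± 0.23 (GC-adjusted 0.60 and 0.58); they did not pass (limma adjusted p = 0.0600 and 0.0527), but did in the paired fit (0.0489 and 0.0392).

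Among the antiviral effectors, Lgals3bp (chr11:118392752-118401931), a secreted galectin-binding glycoprotein, was among the 14 risen genes. Its 3 control values were 20.8, 18.8 and 20.2 FPKM and its 3 drug values 39.4, 35.9 and 68.9, with no overlap. The log2 difference was 1.17 ± 0.21 (limma adjusted p = 0.0409), also 1.17 after GC adjustment. Slfn2, a member of the schlafen family, had 2.89, 3.46 and 3.52 FPKM in controls and 7.35, 5.83 and 10.1 with pimobendan (1.00 ± 0.18, GC-adjusted 0.90). Slfn5 of the same family had 6.47, 7.61 and 5.93 against 10.1, 16.1 and 15.3 FPKM (0.93 ± 0.17, GC-adjusted 0.68), and the chaperone Rtp4 4.13, 4.51 and 4.57 against 6.58, 7.41 and 8.86 (0.67 ± 0.12, GC-adjusted 0.55). In all 3 of these genes the groups did not overlap, as in 358 of the 360 risen genes.

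The other 10 risen antiviral genes were picked for the text after their values were seen. Ifit1, whose product binds viral RNA that lacks the host cap, had 0.76, 0.80 and 0.96 FPKM in controls and 1.73, 4.11 and 6.55 with pimobendan (1.36 ± 0.28, GC-adjusted 1.07). Rsad2, the antiviral enzyme viperin, had 2.39, 3.5 and 3.08 against 4.81, 6.09 and 7.02 FPKM (0.80 ± 0.15, GC-adjusted 0.54). Both were near 1 to 7 FPKM, where the added 1 makes a log2 difference smaller than that of the FPKM itself. Ifi27l2a was the most abundant of the 10, with 28.3, 23.9 and 25.7 FPKM in controls and 44.1, 43.6 and 57.7 with the drug (0.87 ± 0.20, GC-adjusted 0.83). The kinase Eif2ak2, which halts translation on double-stranded RNA, rose by 0.93 ± 0.19 (GC-adjusted 0.67), and Oas2, which makes the signal that activates RNase L, by 0.72 ± 0.16 (0.63). Samd9l rose by 0.94 ± 0.22, Parp14 by 0.75 ± 0.19 and Xaf1 by 0.68 ± 0.17 (GC-adjusted 0.51, 0.56 and 0.53). Ifit3 and Ifit3b rose by 1.00 ± 0.24 and 0.96 ± 0.18 (GC-adjusted 0.85 and 0.76), but they are near-identical copies, and fragments may have been split between them. Of the genes just past the threshold, Oasl2 had an adjusted p of 0.0501 and Ifit2 of 0.0546 (limma); in the paired fit they had 0.0354 and 0.0306, and 18 antiviral genes passed.

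The interferon-stimulated response element, the site that the STAT complex with IRF9 binds, is shown here in promoters of risen antiviral genes. It describes their sequence, and its part in their rise was not tested. The motif searched was GAAA, any 2 bases and GAAA again, on either strand, and no other motif was searched. The window ran between 250 bases before and 50 after the transcription start in the RefSeq promoters of GRCm38.p6. Capitals mark it, or its reverse complement, in 100 bases written 5′ to 3′ along the gene's own strand. The Ifit3b window holds the same 100 bases as that of Ifit3 and is not repeated.
Ifit1, chr19:34640759-34640858, plus strand: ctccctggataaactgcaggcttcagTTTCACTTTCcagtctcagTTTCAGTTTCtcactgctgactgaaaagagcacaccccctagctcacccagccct
Ifit3, chr19:34583362-34583461, plus strand: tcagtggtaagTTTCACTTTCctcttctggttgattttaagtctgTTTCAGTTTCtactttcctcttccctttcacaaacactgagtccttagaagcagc
Rsad2, chr12:26456518-26456617, minus strand: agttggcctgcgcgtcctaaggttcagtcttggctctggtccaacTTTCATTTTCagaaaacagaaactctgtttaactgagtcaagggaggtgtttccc
Slfn5, chr11:82951902-82952001, plus strand: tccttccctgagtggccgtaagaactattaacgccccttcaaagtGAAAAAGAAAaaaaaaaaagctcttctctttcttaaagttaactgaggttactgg
The windows of Ifit1 and Ifit3 hold 2 matches each, and the match of Slfn5 lies at the head of a run of A. The motif was held by 321 of the 9129 tested genes with a promoter there (3.52%), as did 1131 of all 32851 promoters (3.44%). It was in 22 of 271 promoters of risen genes (8.12%), in 13 of 36 of the antiviral list, in 6 of 10 of its risen members, in 9 of 11 of the immunity GTPases and in 0 of 13 of fallen genes. A match describes the letters only. The motif is rich in A and T, and risen genes had a median transcript GC content of 43.4% against 50.5% over all genes. The part of GC content in these counts was not tested. The 13 promoters of fallen genes are too few for their 0 matches to be read. Ifit3 and Ifit3b count as separate promoters here. Lgals3bp, Slfn2, Samd9l, Xaf1, Irf7 and Irf9 had no match in this window.

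Guanylate-binding proteins and immunity-related GTPases, which attack the vacuoles of intracellular microbes and follow interferon gamma, had the highest list median at 0.89 (GC-adjusted 0.67). Of 16 tested 2 rose and 15 were positive. Drug replicate 3 was the highest drug mouse in all 16, and the members summed to 104, 125 and 379 FPKM in the drug mice against 77.7 to 90.0 in controls. Without that mouse the list's median was 0.41, against 0.10 for all genes, and that of the antiviral list was 0.46. Iigp1 had 5.46, 8.37 and 6.74 FPKM in controls and 12.3, 23.1 and 77.8 with pimobendan (1.92 ± 0.45, limma adjusted p = 0.0457, GC-adjusted 1.503). The groups did not overlap, but the drug mice differed among themselves by more than the controls did, and without replicate 3 the difference was 1.203. Gbp3 had 1.96, 2.53 and 2.09 against 3.09, 5.54 and 9.40 FPKM (1.04 ± 0.25, GC-adjusted 0.83). Igtp, not called, had 13.4, 11.1 and 11.7 FPKM in controls and 15.0, 11.8 and 68.7 with the drug; here replicate 3 alone lay apart. Members of these families are close in sequence, so their fragments may have been shared between genes. In the paired fit 7 of the 16 passed.

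Antigen presentation followed. Of 28 MHC and immunoproteasome genes 2 rose, or 7.14% against 3.15% of all genes. In this list 26 were positive and the median was 0.44 (GC-adjusted 0.30). Ctss, the protease that trims the invariant chain of MHC class II, had 8.11, 7.27 and 7.08 FPKM in controls and 13.4, 11.2 and 17.9 with pimobendan (0.82 ± 0.17, GC-adjusted 0.62). H2-DMb1, which helps to load peptide on class II, had 2.59, 1.61 and 2.07 against 5.47, 3.89 and 3.49 FPKM (0.77 ± 0.17, GC-adjusted 0.74). In these 2 genes the highest drug mouse was not the same, replicate 3 for Ctss and replicate 1 for H2-DMb1. B2m, the light chain of class I, had 334, 255 and 309 FPKM against 386, 405 and 665 and did not pass (0.66 ± 0.18, GC-adjusted 0.31, limma adjusted p = 0.0548; 0.0354 in the paired fit, in which 6 of the 28 passed). Of 33 chemokine and cytokine genes 1 rose, the T cell attractant Ccl5, from 0.90, 0.45 and 0.54 FPKM to 1.83, 1.51 and 3.17 (0.93 ± 0.19, GC-adjusted 0.90).

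Of the macrophage markers 0 passed. All 16 tested had positive differences (median 0.28, GC-adjusted 0.21), and 1 did in the paired fit, the mannose receptor Mrc1 (2.83, 3.54 and 3.14 against 4.32, 6.07 and 8.04 FPKM, difference 0.75 ± 0.19, GC-adjusted 0.46, limma adjusted p = 0.0501, and 0.0354 in the paired fit). The 17 markers together summed to between 358 and 392 FPKM in TAC+control and between 394 and 517 in TAC+pimobendan. None was listed at 0 in all 6 libraries. In whole tissue, a change in the number of cells of a type and a change in the RNA per cell cannot be told apart, and the part of macrophages in the rise of the interferon and class II genes was not tested.

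**Figure D3:**
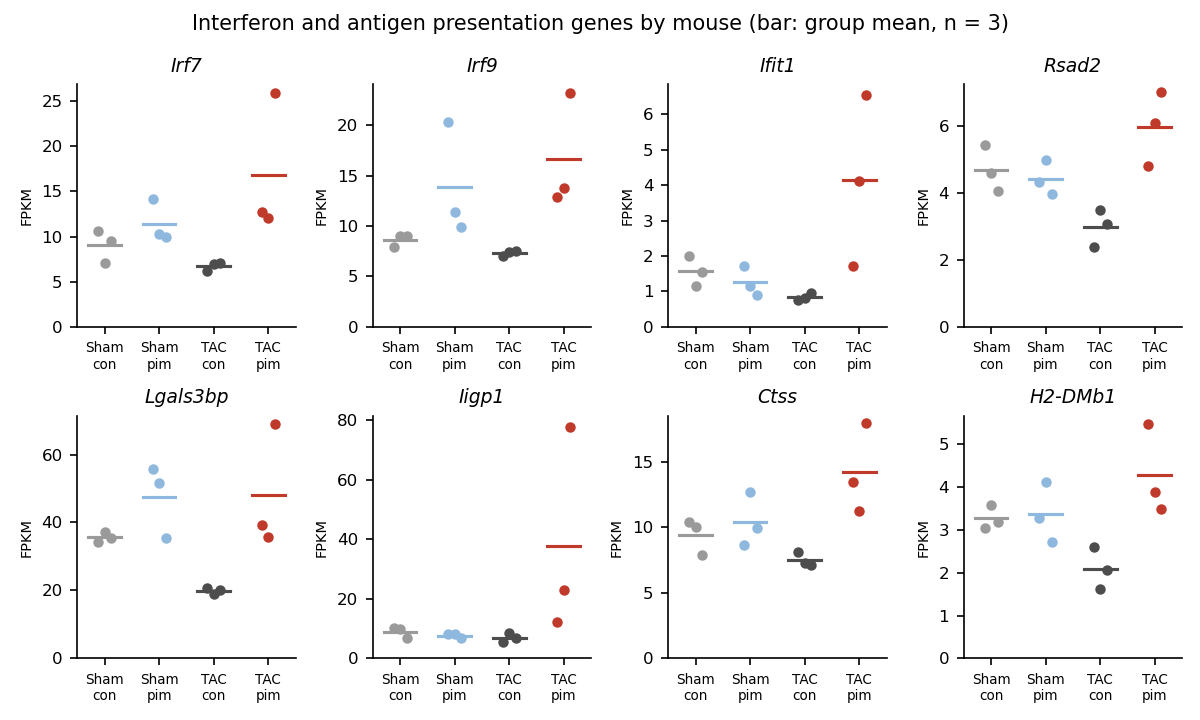
FPKM (y axes, from 0) of 8 interferon and antigen presentation genes in each mouse, by group (x axes; points, mice; bars, means of 3 mice). In each panel the 3 TAC+pimobendan mice lie above the 3 TAC+control mice, and in Iigp1 replicate 3 stands at 77.8 FPKM.

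Srsf5 (chr12:80945504-80961528 in GRCm38), an SR protein that selects exons, had the smallest adjusted p of the comparison. Its level was 31.7, 32.1 and 29.4 FPKM in controls and 86.8, 85.5 and 61.6 with pimobendan (1.28 ± 0.16, confidence interval 0.93 to 1.63, limma adjusted p = 0.0309, GC-adjusted 1.04). Its values after sham were also higher with the drug (0.69 ± 0.16, limma adjusted p = 0.910), and the difference between both drug effects was 0.59 ± 0.23 (adjusted p = 0.171). Of 27 SR factors tested 3 rose, or 11.1% against 3.15% of all genes. The others were Pnisr (4.79, 6.21 and 4.22 against 6.61, 11.8 and 12.3 FPKM, difference 0.86 ± 0.20, GC-adjusted 0.59) and Luc7l2 (19.5, 20.8 and 18.7 against 24.02, 33.6 and 34.2 FPKM, difference 0.60 ± 0.14, GC-adjusted 0.27). The list median of 0.26 fell to 0.01 after GC adjustment, where all genes stood at -0.02. Srsf5 was well above that median on both scales.

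Further risen genes encode RNA-binding and zinc finger proteins. Of 69 hnRNP and RBM proteins tested 5 rose, or 7.25% against 3.15% of all genes, and 59 were positive (median 0.25, GC-adjusted 0.04). Rbm25, a splicing regulator, had 6.83, 9.31 and 8.27 FPKM in controls and 10.9, 17.3 and 15.7 with pimobendan (0.76 ± 0.16, GC-adjusted 0.44). Rbm39 had 19.4, 25.9 and 23.7 against 28.8, 38.9 and 43.5 FPKM (0.66 ± 0.16, GC-adjusted 0.37), and Celf2, which binds GU-rich RNA, 4.98, 6.38 and 6.32 against 8.65, 9.01 and 8.95 (0.52 ± 0.11, GC-adjusted 0.20). The remaining risen members were Mbnl1 and the low Rbm34 (GC-adjusted 0.20 for both). Of 232 Zfp genes 16 rose, or 6.90% against 3.15% of all genes, and 0 fell, with a median of 0.23 (GC-adjusted 0.05). Zfp36l2, which binds AU-rich messages and is no classical zinc finger factor, had 7.96, 10.5 and 11.4 FPKM against 16.1, 16.8 and 17.8 (0.72 ± 0.12, GC-adjusted 0.71). Zfp488, a transcriptional repressor, had 9.61, 15.3 and 11.4 against 17.8, 25.2 and 23.3 FPKM (0.82 ± 0.17, GC-adjusted 0.69). In all of these genes the lowest drug value lay above the highest control value, as in 358 of the 360 risen genes. In the paired fit 10 of the 69 and 35 of the 232 passed, where 694 of all 11415 genes did.

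The genes of the drug's own targets did not pass. Pde3a, the main cardiac phosphodiesterase 3, had 8.10, 6.95 and 6.15 FPKM in controls and 9.51, 7.84 and 10.7 with pimobendan (0.36 ± 0.16, confidence interval 0.01 to 0.71, limma adjusted p = 0.181, GC-adjusted 0.06), and the groups overlapped. Pde3b had 0.37, 0.40 and 0.60 against 0.83, 0.87 and 1.12 FPKM (0.41 ± 0.12, adjusted p = 0.0633, GC-adjusted 0.15); with a pseudocount of 0.1 its difference was 0.91. The troponins Tnnc1 and Tnni3 stood at -0.23 ± 0.12 and -0.09 ± 0.08. Tnnc1 had 4705, 4921 and 4389 FPKM against 4084, 4776 and 3207, and Tnni3 had 7655, 7292 and 7785 against 7277, 7427 and 6704, so the groups overlapped in both, and Tnni3 was positive under quantile normalization (0.05).

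Of 18 phosphodiesterases tested 1 rose, or 5.56% against 3.15% of all genes, and 16 were positive (median 0.16, GC-adjusted 0.06). The riser was Pde1c (chr6:56069798-56652674), which is activated by calcium and calmodulin and breaks down cyclic AMP and cyclic GMP, with 6.94, 4.76 and 6.27 FPKM in controls and 9.63, 11.6 and 11.8 with pimobendan (0.79 ± 0.19, limma adjusted p = 0.0463, GC-adjusted 0.49). After sham it stood at 0.02. Of 36 genes of cyclic AMP signalling 3 rose, or 8.33% against 3.15% of all genes, and 24 were positive. The list's median was 0.12 (GC-adjusted 0.03), near the 0.095 and -0.02 of all genes. Akap6, which anchors protein kinase A at the nuclear envelope of cardiomyocytes, had 11.8, 11.6 and 12.6 against 16.1, 18.7 and 17.5 FPKM (0.50 ± 0.12, GC-adjusted 0.23). Akap11, another such anchor, had 2.71, 3.03 and 2.70 against 3.95, 4.88 and 5.66 (0.60 ± 0.13, GC-adjusted 0.27). Rapgef4, the cyclic AMP sensor Epac, had 8.28, 9.11 and 9.49 against 13.2, 12.7 and 10.8 (0.41 ± 0.10, GC-adjusted 0.21) and did not pass in the paired fit (adjusted p = 0.0509). In the anchors and the sensor all 3 drug mice lay above every control mouse, as the groups lay apart in 358 of the 360 risen genes.

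Of 36 calcium cycling genes 2 rose, or 5.56% against 3.15% of all genes, and 27 were positive (median 0.12, GC-adjusted 0.02). Phospholamban (Pln, chr10:53323594-53422590), which restrains the calcium pump until it is phosphorylated downstream of cyclic AMP, had 2274, 2613 and 2393 FPKM in controls and 3030, 3471 and 3838 with pimobendan. The log2 difference was 0.50 ± 0.10 (confidence interval 0.28 to 0.72, limma adjusted p = 0.0409), but 0.07 after GC adjustment. Cacna2d1, an auxiliary subunit of the L-type calcium channel, had 13.6, 19.4 and 13.7 against 19.4, 31.9 and 27.9 FPKM (0.72 ± 0.17, GC-adjusted 0.35). The pump itself, Atp2a2, had 3828, 3945 and 3859 against 3805, 3606 and 4149 FPKM and stood at -0.01 ± 0.07; it was positive on TPM and under quantile normalization (0.06 and 0.07). Trdn, the anchor of the release channel, stood at 1.05 ± 0.27 (GC-adjusted 0.56, limma adjusted p = 0.0513; 0.0187 in the paired fit, in which 5 of the 36 passed). Among channel genes, the potassium channel subunit Kcnv2 rose from 1.51, 2.57 and 2.26 FPKM to 3.85, 3.35 and 4.42 (0.66 ± 0.14, GC-adjusted 0.52). The skeletal-type calcium channel Cacna1s rose from 2.66, 4.10 and 4.11 to 6.66, 6.68 and 5.03 (0.63 ± 0.15, GC-adjusted 0.61). They were the only called members of 21 potassium channels and of 17 sodium and pacemaker channel genes in the fit reported; 5 and 2 passed in the paired fit.

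Sarcomere genes moved in both directions. Actc1 (chr2:114047282-114053863), the actin of the cardiac thin filament, had 17412, 14524 and 15042 FPKM in controls and 11091, 12620 and 9044 with pimobendan (-0.53 ± 0.13, limma adjusted p = 0.0482, GC-adjusted -0.58). Actn2, the alpha-actinin that crosslinks actin at the Z-disc, had 1265, 1339 and 1277 against 1068, 1051 and 871 (-0.38 ± 0.08, adjusted p = 0.0409, GC-adjusted -0.39). Both differences were smaller under quantile normalization, at -0.08 for Actc1 and -0.16 for Actn2, where all genes stood at -0.02. Nebl, which binds actin at the Z-disc, had 13.4, 20.1 and 14.9 against 20.6, 34.2 and 33.4 FPKM (0.81 ± 0.20, GC-adjusted 0.43). Xirp2, an actin-binding protein of the intercalated disc, had 11.5, 14.8 and 10.2 against 15.7, 32.7 and 29.0 (0.98 ± 0.23, GC-adjusted 0.66), and Nexn, a Z-disc protein, 35.6, 49.3 and 35.5 against 54.6, 124 and 95.3 (1.11 ± 0.25, GC-adjusted 0.70). In Nebl, Xirp2 and Nexn drug replicate 1 was the lowest of the drug mice and still above every control. Myh7b, a slow-type myosin, rose from 5.28, 6.57 and 6.12 FPKM to 11.7, 13.5 and 9.14 (0.82 ± 0.14, GC-adjusted 0.84). In all, 1 of 16 thin filament genes rose and 1 fell, 1 of 14 thick filament genes rose, and 1 of 36 titin, Z-disc and M-band genes rose and 1 fell. Their medians were -0.04, -0.09 and -0.08; the first was positive on TPM and under quantile normalization (0.03 in both).

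Markers of hypertrophy varied between mice of one group and did not pass. Acta1, skeletal alpha-actin, had 1608, 632 and 166 FPKM without the drug and 251, 246 and 131 with it (-1.46 ± 0.60, confidence interval -2.75 to -0.16, limma adjusted p = 0.144, GC-adjusted -1.45). The groups overlapped, since the third control mouse was among the drug mice; in the paired fit the adjusted p was 0.0456. Without control replicate 1 its difference was -0.69, and without control replicate 3 it was -2.32. Nppb, B-type natriuretic peptide, had 1197, 423 and 708 FPKM against 456, 555 and 322 (-0.71 ± 0.35, adjusted p = 0.210), with -0.34 without control replicate 1 and -1.08 without control replicate 2. Nppa, atrial natriuretic peptide, went the other way, with 272, 169 and 137 against 331, 521 and 268 FPKM (0.96 ± 0.34, adjusted p = 0.1002). Myh7, the slow myosin of the fetal mouse heart, had 7.30, 34.98 and 22.03 against 80.5, 39.1 and 80.4 FPKM (1.76 ± 0.92, adjusted p = 0.240), with 1.16 without control replicate 1. Its drug values all lay above its control values. Ankrd1, a stretch-responsive Z-disc protein, had 457, 574 and 302 against 552, 906 and 510 (0.56 ± 0.30). Myh6, the adult myosin, had 4837, 5233 and 5546 against 5041, 4931 and 4945 (-0.06 ± 0.06; positive on TPM and under quantile normalization, at 0.01 and 0.03). The matrix genes Col1a1 and Postn stood at -0.01 ± 0.26 and 0.65 ± 0.25 (the latter GC-adjusted 0.39); Col1a1 had 17.5, 17.5 and 14.3 FPKM against 22.2, 15.0 and 12.9 and was positive on TPM and after GC adjustment (0.06 and 0.01), and Postn had 3.66, 5.09 and 3.19 against 4.79, 9.29 and 6.75. Of 20 collagens 0 passed.

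Mef2a, a transcription factor of muscle, was the called member of the 33 fetal and hypertrophy genes, with 22.98, 24.5 and 25.6 FPKM in controls and 35.8, 39.2 and 41.1 with pimobendan (0.65 ± 0.10, limma adjusted p = 0.0409, GC-adjusted 0.32). Its mice lay close together in both groups. Fbxo32 (chr15:58175879-58214892) tags muscle proteins for the proteasome. It had 6.45, 8.46 and 13.4 FPKM in controls and 18.6, 27.7 and 21.5 with pimobendan (1.21 ± 0.27, adjusted p = 0.0432, GC-adjusted 1.01), and 22.7, 35.7 and 19.4 in Sham+control. The drug values after TAC thus lay near those of untreated sham mice, and the TAC+control values below all other groups' values. Of 26 atrogenes and FoxO factors the other riser was Bnip3l, a receptor for the removal of mitochondria (17.1, 17.5 and 17.1 against 23.2, 24.01 and 24.4 FPKM, difference 0.44 ± 0.09), whose GC-adjusted difference was 0.11. Lipoprotein lipase (Lpl), which frees fatty acids from circulating fat, rose from 758, 938 and 787 FPKM to 1063, 1373 and 1738 (0.73 ± 0.17, GC-adjusted 0.45), the only call among 26 genes of lipid uptake and storage in the fit reported.

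**Figure D4:**
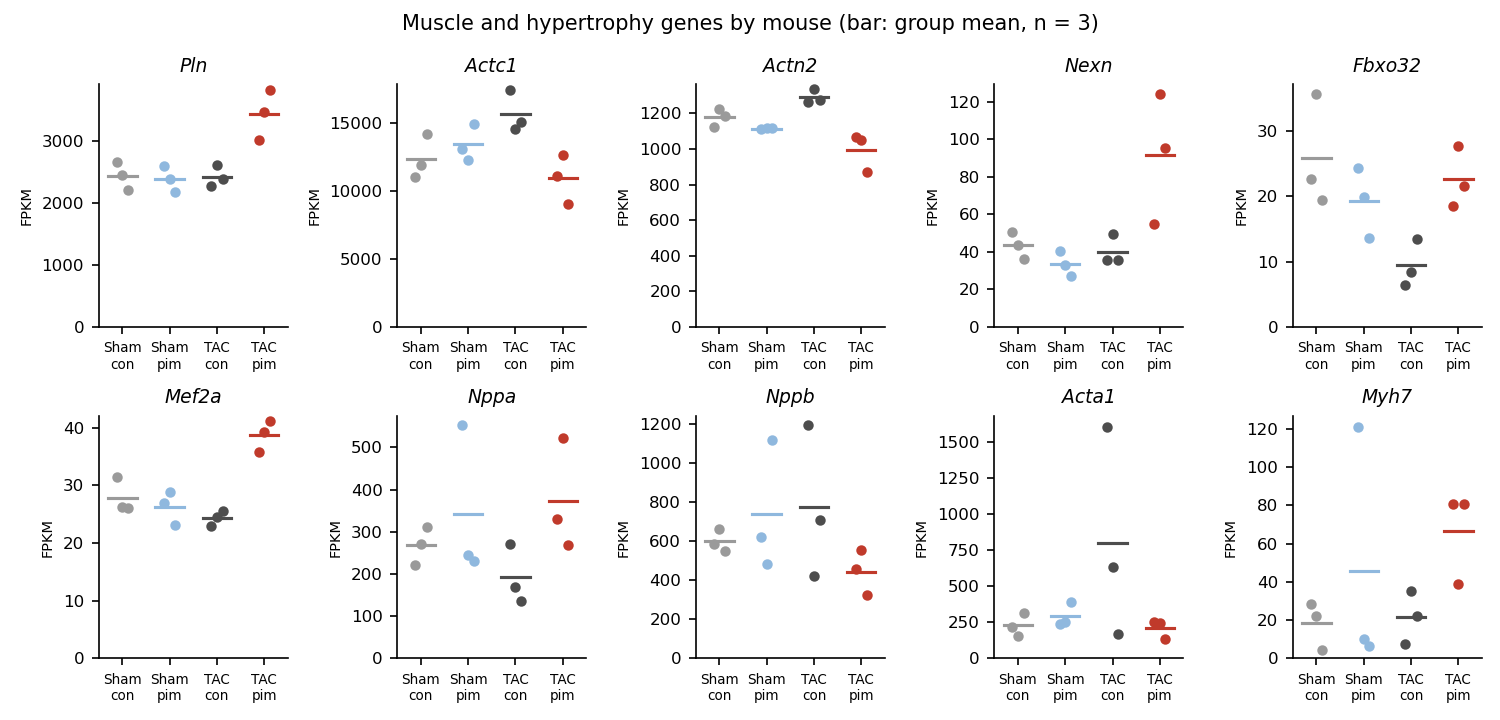
FPKM (y axes, from 0) of 10 muscle and hypertrophy genes in each mouse, by group (x axes; points, mice; bars, means of 3 mice). Pln, Nexn, Fbxo32 and Mef2a are higher in all 3 TAC+pimobendan mice than in the TAC+control mice, Actc1 and Actn2 are lower, and Nppa, Nppb and Acta1 overlap.

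The title of the series names MAP kinases, the enzyme cascades that relay growth and stress signals. Shares of risen genes in the 3 lists were 6.25%, 3.12% and 5.88%, at or somewhat above the 3.15% of all genes, and rest on 4 genes. Of 32 genes from RAS to ERK 2 rose (median 0.15, GC-adjusted 0.03): Rps6ka3, a kinase that ERK activates, from 3.25, 3.46 and 3.15 FPKM to 4.64, 6.53 and 6.97 (0.70 ± 0.17, GC-adjusted 0.33), and Rasa2, which switches RAS off, from 0.55, 0.65 and 0.51 to 1.17, 1.49 and 1.37 (0.58 ± 0.12, GC-adjusted 0.25). Of 32 genes of the p38 and JNK cascades Map4k3 rose, from 7.11, 6.93 and 7.55 FPKM to 9.16, 11.6 and 10.7 (0.48 ± 0.12, GC-adjusted 0.24). Among 17 feedback genes, which ERK activity induces, Etv5 rose from 4.23, 3.16 and 4.26 FPKM to 7.29, 8.21 and 7.43 (0.83 ± 0.17, GC-adjusted 0.77). The feedback list had a median of 0.22 (GC-adjusted 0.09), and Dusp8, a phosphatase of JNK and p38, stood at -0.80 ± 0.22 (limma adjusted p = 0.0548; 0.0354 in the paired fit). Of 27 immediate early genes 0 passed. Junb, one of them, had 12.3, 28.9 and 80.3 FPKM in controls and 53.7, 51.7 and 107 with the drug, so the spread of the controls covered most of the drug values. These values are messenger RNA levels and carry no information on phosphorylation.

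Several genes outside the lists were among the largest rises. Trpm7, a channel with a kinase domain, had 2.23, 3.59 and 2.14 against 4.48, 8.95 and 7.29 (1.09 ± 0.21, GC-adjusted 0.71). Angpt1, the angiopoietin that stabilises vessels through the receptor Tie2, had 2.50, 4.54 and 2.39 against 4.30, 9.22 and 10.03 (1.06 ± 0.26, GC-adjusted 0.65). In Angpt1 the lowest drug value was below the highest control value. Ddx3y, a Y-linked RNA helicase, had 3.00, 6.42 and 3.76 against 6.16, 11.3 and 13.2 FPKM (1.05 ± 0.25, GC-adjusted 0.53), also with an overlap. The smallest p values among the rises, after Srsf5, belonged to Clec2d, Mef2a, Apobec1 and Hif1a. Clec2d, a ligand of a natural killer cell receptor, had 17.6, 18.1 and 14.3 against 26.7, 30.0 and 33.4 FPKM (0.82 ± 0.12, GC-adjusted 0.59), and Apobec1, an RNA-editing cytidine deaminase, 1.56, 1.92 and 1.78 against 3.21, 3.39 and 3.85 (0.70 ± 0.12, GC-adjusted 0.52). Hif1a, the hypoxia-inducible factor, had 11.0, 10.8 and 12.8 against 18.8, 22.3 and 21.02 FPKM (0.79 ± 0.13, GC-adjusted 0.45), and the list of 21 hypoxia genes had no other call in this fit. The glucocorticoid receptor Nr3c1 (10.4, 11.3 and 10.6 against 14.4, 16.6 and 17.3 FPKM, difference 0.54 ± 0.13, GC-adjusted 0.21) was the single call among 19 glucocorticoid targets. The cell-cycle inhibitor Cdkn1b (13.3, 14.1 and 14.0 against 18.5, 17.0 and 19.2 FPKM, difference 0.38 ± 0.09, GC-adjusted 0.09) and thymidylate synthase Tyms (2.99, 3.87 and 2.90 against 4.24, 6.22 and 5.33; 0.55 ± 0.13, GC-adjusted 0.41) were the calls among 26 replication and mitosis genes. The matrix protease Adamts5 (0.75 ± 0.15, GC-adjusted 0.48) was the call among 48 other matrix genes.

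The 13 fallen genes were short and mostly abundant, with a median of 118 FPKM in TAC+control against 4.40 for the risen genes. Alpl had 31.3, 28.0 and 32.4 FPKM in controls and 21.5, 16.3 and 19.9 with pimobendan (-0.65 ± 0.11, limma adjusted p = 0.0409, GC-adjusted -0.65). Several serve mitochondria: Sco2 had 22.1, 21.1 and 17.8 against 14.1, 13.9 and 12.3 (-0.56 ± 0.12). Cox6a1, a subunit of cytochrome oxidase, had 341, 343 and 334 against 255, 227 and 258 (-0.46 ± 0.10, GC-adjusted -0.44), and its controls differed by under 10 FPKM. Cisd3, an iron-sulfur protein of mitochondria, had 117, 125 and 112 against 98.9, 87.9 and 82.2 (-0.40 ± 0.10), and Pam16, a part of the import motor, 130, 112 and 114 against 96.9, 96.5 and 92.1 (-0.31 ± 0.07). The others were Nr0b2, a nuclear receptor that represses transcription (-0.42 ± 0.10), Oaz1, the antizyme of polyamine synthesis (-0.30 ± 0.07), Mcrip2 (-0.39 ± 0.10), E130309D02Rik (-0.40 ± 0.10) and Klhl21 (-0.28), named after its value was seen. Of these, Mcrip2, E130309D02Rik and Klhl21 did not pass in the paired fit, and Alas2, Actc1 and Actn2 are described apart.

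Lists of mitochondrial and energy genes had negative medians as deposited and 1 call. Of 84 nuclear-encoded genes of the respiratory chain and ATP synthase 71 were negative and Cox6a1 fell; the median was -0.14 (GC-adjusted -0.22), and 42 had drug values all below the control values, where 6.64% of all genes did. Ndufs7, a subunit of complex I, stood at -0.33 ± 0.10 and Atp5d, of the ATP synthase, at -0.38 ± 0.10 (limma adjusted p = 0.0633 and 0.0534). Of 78 mitochondrial ribosomal proteins 68 were negative, 31 lay apart in the lower direction and 0 passed (median -0.12, GC-adjusted -0.23). Fatty acid oxidation (31 genes), glycolysis (28) and the pyruvate and citric acid cycle (34) had medians of -0.13, -0.12 and -0.11 with 0 calls each. Under quantile normalization, where all genes stood at -0.02, the medians of the respiratory chain and the citric acid cycle were -0.03 and -0.04, near that of all genes. The medians of mitochondrial ribosomal proteins, fatty acid oxidation and glycolysis were then -0.14, -0.11 and -0.08. After sham the 5 medians were positive, between 0.02 and 0.11. The 83 cytosolic ribosomal proteins had a median of -0.05, which was positive on TPM and under quantile normalization (0.02 and 0.03).

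**Figure D5:**
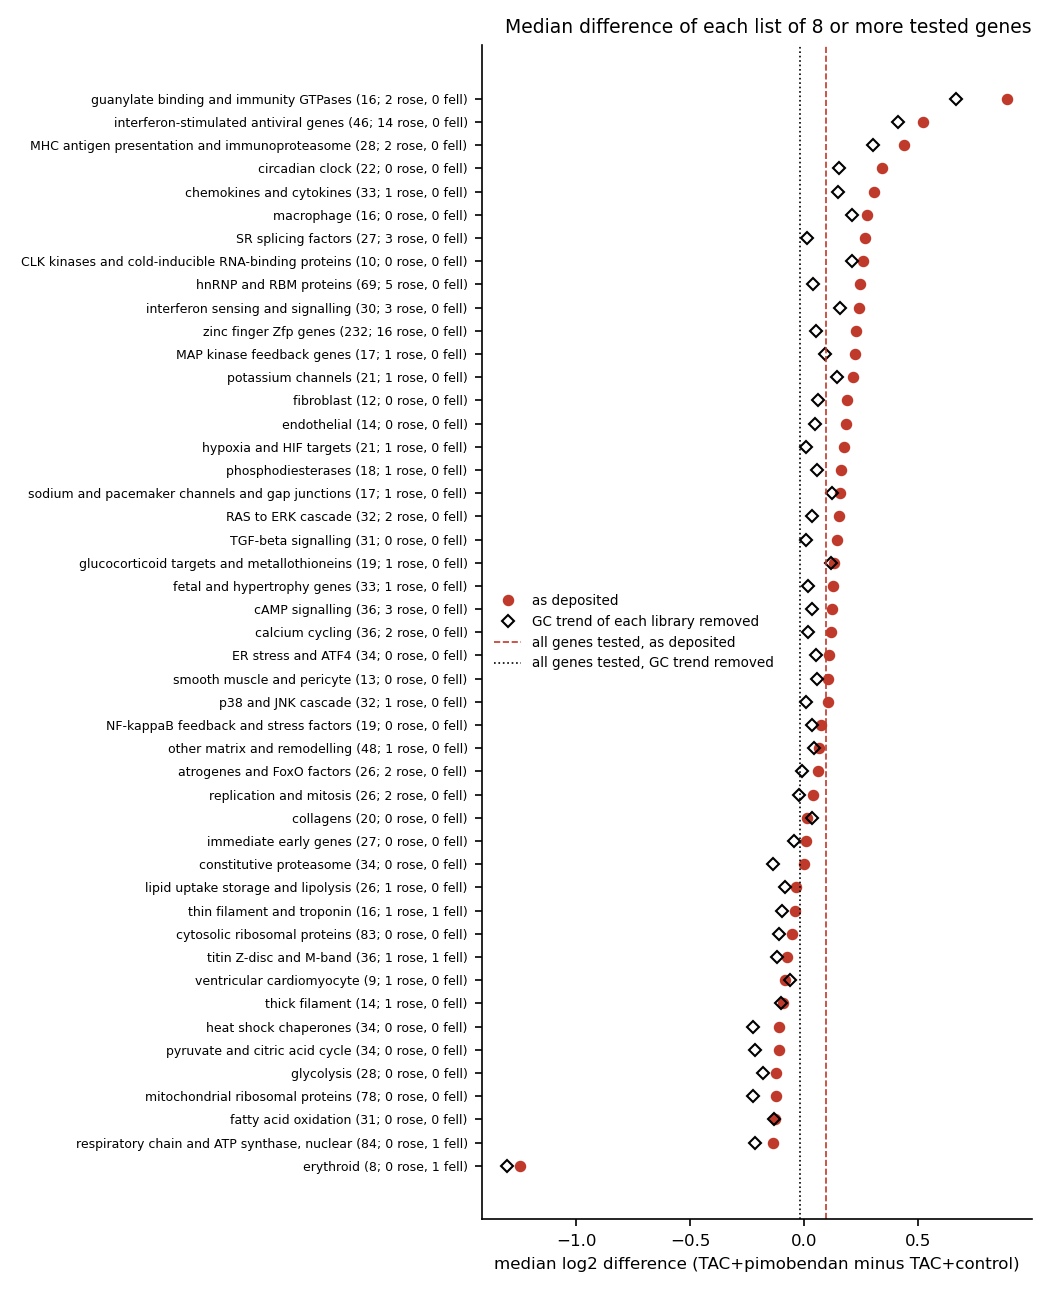
Median log2 difference (x axis, TAC+pimobendan minus TAC+control) of each list with 8 or more tested genes (y axis; in parentheses the genes tested and the calls), as deposited (filled) and with the GC trend of each library removed (open). Dashed and dotted lines give the same for all genes tested, 0.095 and -0.02; the interferon, GTPase and MHC lists lie above them and the erythroid list lowest.

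Of 34 heat shock chaperones, 24 were negative and 0 passed (median -0.11, GC-adjusted -0.22), but in the paired fit 5 passed as lower and 1 as higher. Hspa1b, the inducible HSP70, had 2.93, 49.4 and 52.3 FPKM in controls and 2.51, 1.94 and 2.89 with pimobendan (-2.68 ± 0.73, limma adjusted p = 0.0548; 0.0319 in the paired fit). Its near-identical copy Hspa1a had 4.97, 32.2 and 75.7 against 3.07, 1.97 and 4.56 (-2.61 ± 0.71). The difference rested on control replicates 2 and 3, since replicate 1 lay near the drug mice. Without that replicate Hspa1b, Hspa1a and Zfp799 were the 3 calls of the whole comparison. Hspb1 and Hspb6, small heat shock proteins of muscle, stood at -0.71 ± 0.19 and -0.50 ± 0.13 (adjusted p = 0.0523 and 0.0508; 0.0375 and 0.0223 in the paired fit).

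Clock genes set 1 control mouse apart. Dbp, a factor with strong daily rhythm, had 3.00, 111 and 51.9 FPKM in controls and 122, 113 and 64.7 with pimobendan. Arntl, which oscillates in the opposite phase, had 11.3, 0.71 and 1.09 against 2.08, 0.59 and 0.88. Control replicate 1 was thus the lowest of the 6 for Dbp and the highest for Arntl. The times at which the mice were sampled are not given in the sources used here, and the part of the time of day was not tested. Of 22 clock genes 0 passed (2 in the paired fit, both positive, Nr1d2 among them at 1.08 ± 0.32, GC-adjusted 0.75), and the list's median was 0.34 (GC-adjusted 0.15).

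Of the red cell genes Alas2 (chrX:150547417-150570622) had 11.1, 13.9 and 10.8 FPKM in controls and 2.77, 6.08 and 5.30 with pimobendan (-1.22 ± 0.26, limma adjusted p = 0.0409, GC-adjusted -1.26), with no overlap. Of 8 erythroid markers tested 7 were negative, 1 fell (Alas2), and the median was -1.25. Hba-a1, an alpha-globin that shares most of its sequence with Hba-a2, had 1493, 2370 and 1551 FPKM against 396, 763 and 662 (-1.59 ± 0.42, adjusted p = 0.0536; 0.0480 in the paired fit). The markers together summed to between 4294 and 6786 FPKM in TAC+control and to between 1236 and 2372 in TAC+pimobendan, with Hbb-b2 listed at 0 in all 6 libraries. After sham the drug difference of these markers also had a negative median, -0.93. The hearts were rinsed after removal, per the labels, and the part of the blood left in the tissue was not tested. Skeletal muscle markers summed to between 2592 and 2787 FPKM in controls and to between 2032 and 2174 with the drug. Atrial markers summed to between 184 and 329 and to between 354 and 650, and mesothelial markers to between 1.16 and 2.00 and to between 3.44 and 4.34, with no overlap in these 3. Ckm alone had 2785, 2671 and 2589 FPKM against 2117, 2171 and 2029, and 6 of the 9 skeletal muscle markers were under 1 FPKM in all 6 libraries. Nppa, an atrial marker, had 272, 169 and 137 against 331, 521 and 268, with an overlap. Of 6 mesothelial markers 5 were under 1 FPKM throughout, and Wt1 overlapped (1.76, 1.01 and 1.86 against 2.68, 1.18 and 2.14). The sums cannot show a change in a cell type. Of the other types, endothelial markers summed to between 408 and 508 FPKM in controls and to between 470 and 524 with the drug, fibroblast markers to between 1122 and 1318 and to between 1232 and 1298, and smooth muscle and pericyte markers to between 352 and 379 and to between 376 and 396.

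The sham libraries gave no second set of calls. Pimobendan against control after sham called 0 of 11415 genes (0.0%; 518 at an unadjusted p under 0.05; smallest limma adjusted p = 0.910). Of the 360 genes that rose after TAC, 84 were positive after sham and 276 negative (median -0.12), where 6125 of all genes were positive. The quintile of all genes with the lowest GC content, which held 234 of the risen genes, had a sham median of -0.091. Of the 13 that fell, 8 were positive and 5 negative. The interaction, which tests whether both drug effects differ, called 0 genes as well (0.0%, with 2312 below 0.05 before adjustment and a smallest adjusted p of 0.0853), so a call after TAC and none after sham was not shown to differ at this threshold. With the paired fit 130 genes passed the interaction, without TAC+pimobendan replicate 1 773 did, and without TAC+control replicate 1 only Hspa1b did. Jak2, Mef2a, Hif1a, Lpl, Nexn and Fbxo32 were among the genes at the smallest interaction p, with differences between both drug effects of 1.08, 0.73, 0.89, 1.09, 1.48 and 1.61. Of the risen genes, 350 had their highest group mean in TAC+pimobendan and 259 their lowest in TAC+control. All 13 fallen genes had their highest mean in TAC+control. Both groups entered the call, so these extremes follow in part from it, and their share over all genes was not counted. Within TAC+pimobendan, replicate 1 showed the smaller rise: the risen genes lay a median of 0.20 above the average of all 12 libraries there, against 0.48 in replicate 2 and 0.48 in replicate 3. The medians in TAC+control were -0.32, -0.13 and -0.27.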

How the data were processed

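RNA of 12 left ventricles was selected with oligo(dT) beads and primed with random hexamers, per the labels; strand marking is not stated, so overlapping and antisense genes cannot be told apart. The authors deposited FPKM and TPM per gene and library, rounded, without counts. The submitters' processing notes list RSEM 1.2.12, HISAT2 2.0.4, DESeq2 1.4.5, Bowtie2 2.2.5 and build GRCm38, with no role or order; how multi-mapping fragments were treated is not given in the sources used here. Deposited TPM values served as an alternative.

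The model was limma-trend (limma 3.58.1, R 4.3.3) on log2(FPKM + 1), with 1 mean per group over all 12 libraries and 8 residual degrees of freedom. It was fitted to the 11415 genes that reached 1 FPKM in 3 or more libraries. Calls needed a Benjamini-Hochberg p under 0.05 across these genes. GC content came from the longest coding transcript of the GENCODE annotation of GRCm38 and was known for 11334 tested genes; a library's trend with it was a loess curve (span 0.5) on the deviation from the mean library. Promoters came from RefSeq GRCm38.p6.

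The members and lists were chosen with earlier results of these data known, so no list was tested. The text names a panel of 14 genes, the 12 largest rises and falls among called genes with a mean of at least 5 FPKM in the higher group, the 5 smallest p in each direction, and up to 4 called members of each list, or its 2 with the smallest p where none was called. Other genes were chosen after their values were seen.

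Labels number the mice 1 to 3 in each group without saying that numbers mark a shared litter or day. In the TAC groups, deviations of same-numbered libraries from their group means correlated at 0.154, 0.208 and 0.101 across genes, all over 0.1. TAC libraries of unlike number ran from -0.172 to 0.028. The same-numbered TAC libraries were taken as paired on that ground from the data. Same-numbered pairs that included a sham group ran from -0.44 to 0.25. Pairs of unlike number reached 0.434 (Sham+control 2 with Sham+pimobendan 1) and 0.410 (Sham+control 1 with TAC+pimobendan 3). Correlations of this size therefore do not show that mice were paired, and the paired fit remains an alternative chosen after seeing the data. Both blocked fits are given beside the count of calls. No 2 libraries held identical values.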

Additional observations from a re-analysis of the deposited data

How the results depend on the processing

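Calls of pimobendan after TAC (373) numbered 0 with no filter on low values, 1 with median-ratio scaling, 0 with quantile normalization, 1110 on TPM, 0 in a fit of only the groups compared and 0 with the GC trend removed. With the replicate number as a block over all groups 1 was called, within the TAC groups 694 (an alternative chosen after seeing the data), and 0 in either with the GC trend removed. A pseudocount of 0.1 gave 272 and a mean of at least 1 FPKM 412. Leaving out 1 library gave 0 to 1190 calls. The interaction kept 0 calls but for 130 with the block within the TAC groups and 0 to 773 over left-out libraries; pimobendan after sham kept 0 in all of its settings. The cause of these changes was not tested. Of the 66 called genes named, 0 changed sign under any of the 18 alternatives, and among all risen genes 358 of 360 stayed positive; the exceptions, Yipf4 and Selenot, were chosen after their values were seen. Of these 66, 29 shrank by over 1.5 times with the GC trend removed, 4 with quantile normalization and 0 with median-ratio scaling or on TPM. Among named genes that were not called, 29 values changed sign. On TPM these were Atp2a2 (0.06226), Col1a1 (0.06496) and Myh6 (0.009639). Under quantile normalization they were Atp2a2 (0.06685), Myh6 (0.03192), Tnni3 (0.0478), Mbp (-0.05496), Thy1 (-0.07828) and Tnni2 (-0.05737), and under median-ratio scaling Thy1 (-0.005435). With the GC trend removed, with or without a replicate block, they were Col1a1 (0.01451) and Dnaja2 (-0.008908), and with a pseudocount of 0.1 S100a9 (0.2307). With 1 library left out, the range was -0.06571 to 0.03541 for Atp2a2, -0.2179 to 0.1502 for Col1a1, -0.03096 to 0.1844 for Thy1, -0.9062 to 0.2283 for S100a8, -0.6791 to 0.3475 for S100a9, -0.1113 to 0.3815 for Mbp and -0.03836 to 0.2834 for Tnni2. The all-gene median difference was 0.095 as deposited, 0.17 on TPM, 0.01 with median-ratio scaling and -0.02 with quantile normalization or the GC trend removed. With 3 mice a group, and no counts, the depth behind low genes is unknown.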
